A study of Mus musculus with 4 samples.

Results

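The 8 genes described here encode subunits of the AMPA and kainate classes of glutamate receptor, and were taken by their symbols from the 31060 genes of the deposited gene table. They were the AMPA receptor subunits Gria1, Gria2, Gria3 and Gria4 and the kainate receptor subunits Grik1, Grik2, Grik3 and Grik5. RNA came from the hippocampus of wild-type C57BL/6 mice aged 12 months. The surgery group had an exploratory laparotomy under sevoflurane, with ropivacaine along the incision, and was sampled on postoperative day 3. The control group had neither anesthesia nor surgery. There were 2 libraries in each group, so surgery differed from control by the anesthetic, the analgesic and the operation together. Whether the 2 libraries of a group came from different mice is not given in the sources used here. Each p therefore reflects the spread among these libraries, part of which may be technical. In whole tissue, fewer cells of a type and less RNA per cell cannot be told apart.

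AMPA receptors are tetramers that carry most of the fast excitatory current at hippocampal synapses, and their number at the synapse moves with synaptic plasticity. The subunit Gria2 keeps most of these channels impermeable to calcium, because its transcript is edited at the pore, and Gria1 is the subunit most closely tied to activity-dependent insertion in pyramidal cells. Kainate receptors act on both sides of the synapse and are best known in the hippocampus at mossy fibre synapses. Grik1, Grik2 and Grik3 form channels by themselves, whereas Grik5 is a high-affinity subunit that needs one of them as a partner.

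Each AMPA receptor gene holds a pair of alternative exons, flip and flop, next to each other near the end of the coding sequence. A mature transcript normally uses 1 of the 2, and the choice sets how fast the channel closes and desensitizes. Both exons were 115 bases long in all 4 genes. The pairs of Gria1 and Gria4 are printed because the flip shares of these 2 genes, unlike those of Gria2 and Gria3, did not overlap between the groups. Such separation is common with 2 against 2 libraries, as 42.6% of all genes did not overlap in CPM. No share over all transcripts was taken. They were read 5′ to 3′ from GENCODE vM21 transcripts on GRCm38, with capitals at the bases that differ between flip and flop of the same gene. In Gria1, on the plus strand, the flip exon lies at chr11:57310608-57310722 and the flop exon at chr11:57309769-57309883, both coding.
Gria1 flip: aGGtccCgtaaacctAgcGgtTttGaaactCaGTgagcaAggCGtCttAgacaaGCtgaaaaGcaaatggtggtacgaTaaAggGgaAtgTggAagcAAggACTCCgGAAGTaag
Gria1 flop: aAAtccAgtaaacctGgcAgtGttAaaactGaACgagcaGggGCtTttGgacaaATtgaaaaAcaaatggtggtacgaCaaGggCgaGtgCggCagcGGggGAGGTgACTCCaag
In Gria4, on the minus strand, the flip exon lies at chr9:4427030-4427144 and the flop exon at chr9:4432773-4432887, both coding.
Gria4 flip: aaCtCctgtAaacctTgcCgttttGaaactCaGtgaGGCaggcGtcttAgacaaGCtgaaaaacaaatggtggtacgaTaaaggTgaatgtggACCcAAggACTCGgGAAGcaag
Gria4 flop: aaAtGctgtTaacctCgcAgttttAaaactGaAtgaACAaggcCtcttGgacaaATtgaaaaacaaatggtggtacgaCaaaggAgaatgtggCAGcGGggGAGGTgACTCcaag
The exons differed at 36 of 115 bases in Gria1 and at 31 of 115 bases in Gria4. That exchanges 8 of 38 residues in Gria1 and 10 of 38 in Gria4. The Gria2 pair differed at 36 bases and 9 residues, and the Gria3 pair at 32 bases and 9 residues. The lower-case stretches are shared but short beside the 115 bases. A read that covers any base in capitals can tell the exons apart.

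Gene counts totalled between 18002695 and 19318085 per library, and 1 library stood apart in its tissue content. Mitochondrially encoded genes made up 5.25% and 4.51% of control counts against 6.32% and 6.61% of surgery counts, so this share did not overlap between the groups, and its part in the results was not tested. Control replicate 1 held almost no choroid plexus RNA, with Ttr, the transthyretin of choroid plexus, at 19.8 CPM against 3231, 3374 and 4245 CPM in the other 3 libraries. Neuronal markers of hippocampus were abundant in all 4 libraries. The 5 pyramidal cell markers summed to between 5130 and 6457 CPM and the 6 interneuron markers to between 778 and 906 CPM. Markers of thalamus summed to at most 56.7 CPM and those of striatum to at most 22.1 CPM.

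Gria1 had the highest gene FPKM of the 8 subunits (fragments scaled by a gene length and the library total). The length is not given in the sources used here, and the order, shares and ratios below depend on it. Counts, gene totals and FPKM together imply a length above the longest annotated transcript in each subunit gene but Grik3, where it is about equal. By CPM, Gria2 (1131) was above Gria1 (1079) in surgery replicate 1 and below it in each other library. By FPKM, Gria1 stood at 186 and 165 in the controls and at 178 and 179 after surgery. Gria2 followed at 61.9 and 57.4 in control and 72.5 and 62.6 in surgery. Grik5 came next, ahead of the other 2 AMPA subunits, at 52.0 and 49.1 FPKM in control and 36.9 and 47.1 in surgery. Below it were Gria3, at 22.3 to 28.5 FPKM over the 4 libraries, and Gria4, at 10.9 to 11.5 FPKM. Grik2 ranged from 6.96 to 8.78 FPKM and Grik3 from 5.77 to 7.52 FPKM, and these 2 neighbours overlapped. Grik1 was lowest, at 1.97 to 2.19 FPKM. Every other pair of neighbours in this order kept apart in range over the 4 libraries. Gria1 made up 61.3% to 65.3% of the summed AMPA subunit FPKM in the 4 libraries, and Grik5 made up 69.3% to 75.8% of the FPKM summed over Grik1, Grik2, Grik3 and Grik5. A further kainate receptor gene, Grik4, is not among the 8 genes and stood at 9.36 to 11.3 FPKM, above Grik2 and Grik3. With Grik4 in the sum the share of Grik5 was 59.0% to 65.2%. The summed AMPA FPKM was 4.14 and 3.89 times the sum of the 4 kainate genes in control, and 5.45 and 4.24 times in surgery. With Grik4 included these ratios were 3.57 and 3.34 in control and 4.64 and 3.62 in surgery.

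**Figure D1:**
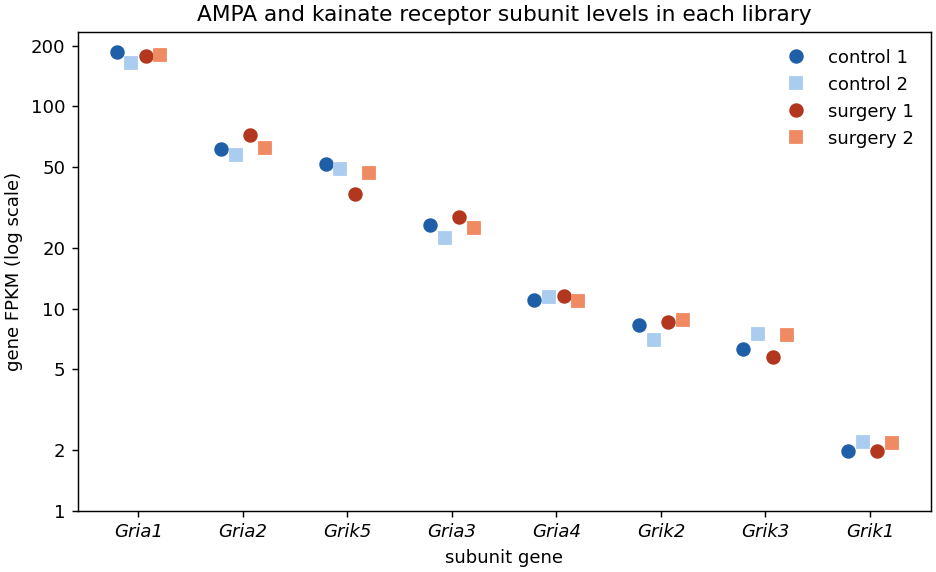
Gene FPKM of the 8 subunits in each library, on a log axis, ordered by mean level; circles are replicate 1 and squares replicate 2 of control (blue) and surgery (red). The levels span from Gria1, at 165 to 186 FPKM, down to Grik1, at 1.97 to 2.19 FPKM, and the libraries of a gene lie close together beside the steps between most genes.

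None of the AMPA subunit genes differed between surgery and control beyond the spread between libraries. The comparison used counts scaled to library size (CPM, with TMM factors) and edgeR's quasi-likelihood test with Benjamini-Hochberg adjustment over all 17236 genes tested. Gria1 was at 1143 and 969 CPM in control and 1079 and 1094 CPM in surgery. Both surgery values lay between the controls, and the log2 fold change was 0.04 (SE 0.16, 95% interval -0.31 to 0.40, adjusted p = 0.952). Gria2 was at 981 and 869 CPM in control and 1131 and 984 CPM in surgery. The lower surgery library passed the higher control by a narrow margin, and the log2 fold change was 0.19 (SE 0.16, 95% interval -0.16 to 0.55, adjusted p = 0.708). Leaving out 1 library at a time took it from 0.09 without surgery replicate 1 to 0.29 without surgery replicate 2. Gria3, on the X chromosome, was at 259 and 214 CPM in control and 282 and 249 CPM in surgery. Its groups overlapped, with a log2 fold change of 0.17 (SE 0.13, 95% interval -0.13 to 0.46, adjusted p = 0.701), which was 0.31 without control replicate 1 and 0.04 without control replicate 2. Gria4, a subunit with fast kinetics that is prominent in interneurons, was the steadiest, at 71.0 and 70.4 CPM in control and 72.9 and 69.6 CPM in surgery. Its log2 fold change was 0.01 with a 95% interval of -0.23 to 0.25. In all 4 genes control replicate 2 was below control replicate 1, by the least in Gria4.

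The kainate subunits did not pass the test either. Grik2, which forms the core of the mossy fibre receptor, was at 112 and 89.7 CPM in control and 114 and 118 CPM in surgery. Both surgery libraries were above both controls, with a log2 fold change of 0.20 (SE 0.13, 95% interval -0.09 to 0.48, adjusted p = 0.617). Without control replicate 1 the Grik2 estimate was 0.37 at an unadjusted p of 0.0423, and without control replicate 2 it was 0.05. Grik5 was at 274 and 247 CPM in control and 191 and 246 CPM in surgery. Surgery replicate 2 lay just under the lower control and surgery replicate 1 well below it. The log2 fold change of Grik5 was -0.25 (SE 0.14, 95% interval -0.56 to 0.06, adjusted p = 0.566), the farthest from 0 of the 8 genes. Without surgery replicate 2 it was -0.44 at an unadjusted p of 0.0052 (adjusted p = 0.0918), and without surgery replicate 1 it was -0.08. Grik3 was at 57.6 and 65.7 CPM in control and 52.0 and 67.0 CPM in surgery, with the 2 surgery libraries on either side of both controls and a log2 fold change of -0.05. Grik1, a subunit found mostly in interneurons, was at 13.6 and 14.3 CPM in control and 13.3 and 14.8 CPM in surgery, with a log2 fold change of 0.01 and an interval of -0.36 to 0.38.

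Over the 8 genes, 0 passed the adjusted threshold of 0.05, where 0% of all 17236 genes passed in edgeR, and 0 had an unadjusted p under 0.05, where 9.96% of all genes did. DESeq2 called 0 of the 8 as well, with 17 genes higher and 51 lower among all genes. The groups did not overlap in CPM for 3 of the 8 genes, Gria2, Grik2 and Grik5, where 42.6% of all genes did not overlap. The median log2 fold change was 0.10 over the AMPA subunits and -0.02 over the kainate subunits, beside 0.00 over all genes. Every 95% interval held 0. The bounds farthest from 0 were 0.55 in Gria2 and -0.56 in Grik5, and Gria4 had the narrowest interval.

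The 8 estimates ran roughly in the order of the genes' GC content. Gria2, Grik2 and Gria3 have the lowest GC content in their longest transcript, at 36.8%, 37.9% and 39.8%, and had the 3 highest log2 fold changes. Gria4 at 44.3%, Grik1 at 47.9% and Gria1 at 48.5% were near 0. Grik3 at 54.2% and Grik5 at 61.7% had the negative estimates. The same slope ran through the libraries as a whole, with a Spearman correlation of -0.60 between log2 fold change and GC content across 10858 genes, which are not independent replicates and share the 4 libraries. The level relative to the mean of the libraries had a correlation of 0.59 with GC content in control replicate 2 and of -0.65 in surgery replicate 1. With an offset for GC content in each library, the log2 fold change became -0.04 in Gria2, -0.01 in Grik2, -0.02 in Gria3 and 0.03 in Grik5, and all 8 lay between -0.09 and 0.03. Gria1 kept its sign under the offset and the other 7 genes turned theirs. The offset takes out any trend with GC content by construction, and the source of the trend was not tested.

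**Figure D2:**
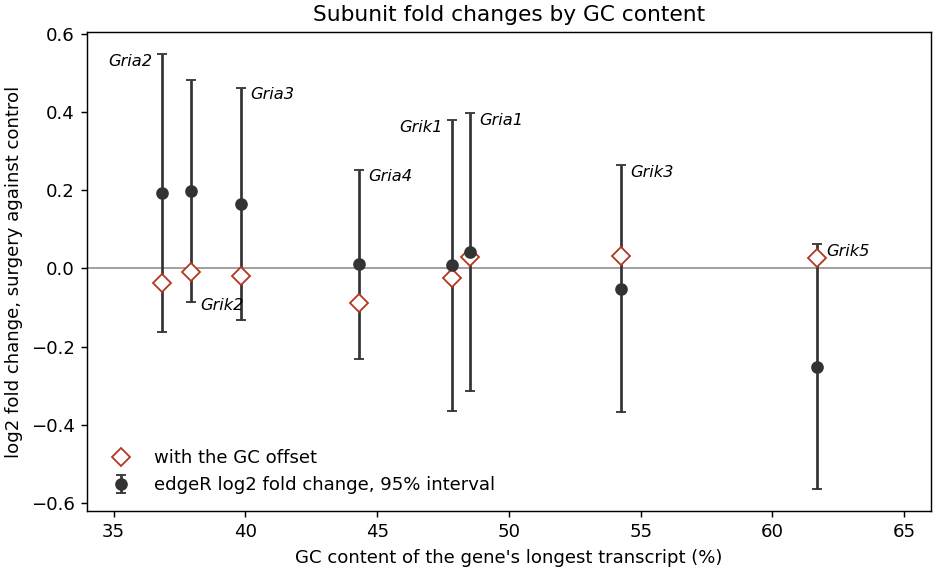
Log2 fold change of surgery against control for each subunit gene (filled circles, with 95% intervals from edgeR) against the GC content of its longest transcript, in percent, with the estimate under the GC offset as open diamonds. The circles go from 0.19 at Gria2 to -0.25 at Grik5, every interval spans 0, and the diamonds all lie between -0.09 and 0.03.

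Transcripts of the 8 genes were read from a separate table of estimated counts, which holds 53 of their 56 annotated transcripts. Its totals were 3.85 to 3.91 times the gene totals, and it also lists 15398 assembled models without a gene name or position, which could be assigned to no subunit. How much of a gene its named transcripts carried was therefore taken as their summed counts over the gene count multiplied by that library's ratio of totals. Gria1 was carried whole, at 99.5% to 101% in the 4 libraries, and Grik3 at 99.4% to 101%. Grik2 was carried at 88.7% to 91.8% and Grik1 at 80.7% to 90.8%. Gria2 was carried at only 14.4% and 16.9% in control and 10.4% and 12.0% in surgery. Gria3 was carried at 98.7% and 97.6% in control but at 43.1% and 50.5% in surgery, while the gene itself stood at 282 and 249 CPM there. Gria4 was carried at 53.1% in control replicate 1 and at 26.0% to 30.5% in the other 3 libraries, and Grik5 at 77.3% in surgery replicate 2 and at 21.1% to 29.4% in the other 3. The transcript values below describe the named part of each gene only.

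**Figure D3:**
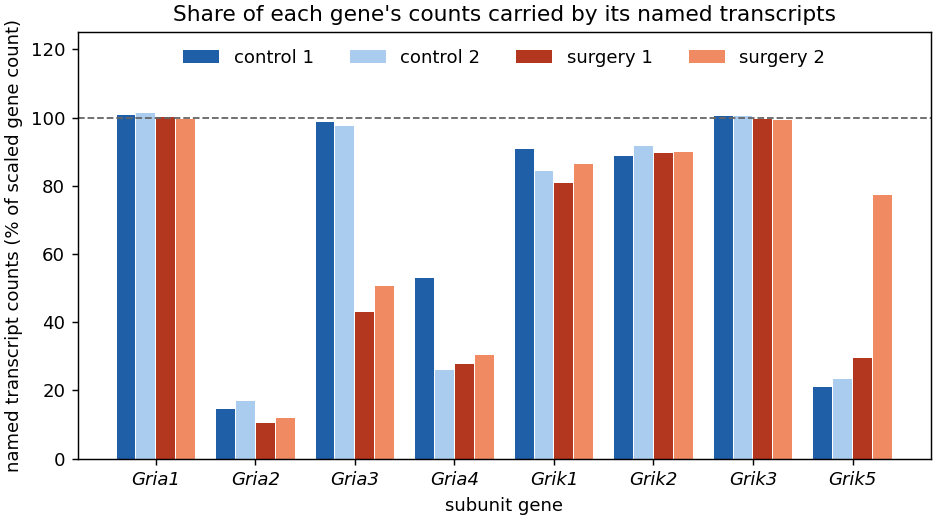
Summed counts of the named transcripts of each subunit gene, in percent of the gene count scaled by the ratio of table totals, for each library; the dashed line marks 100%. Gria1 and Grik3 reach the line in all 4 libraries, Gria2 stays between 10.4% and 16.9%, and Gria3, Gria4 and Grik5 differ between libraries.

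Of the 53 transcripts, 40 could be tested for a difference in level and 39 for a difference in usage, which is a transcript's change against the others of its gene. In level, 0 passed the adjusted threshold, where 0% of 65665 transcripts passed, and 5 had an unadjusted p under 0.05, where 6.00% of all transcripts did. In usage, 2 passed the adjusted threshold, Gria4-202 and Grik2-205, where 0.893% of 43316 transcripts passed, and 3 had an unadjusted p under 0.05, where 4.47% did. Both usage calls ended with limma in place of edgeR.

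Gria1 was made up almost wholly of 2 transcripts that encode proteins of 907 residues each. The flop form, Gria1-202 (ENSMUST00000094179), was estimated at 76003 and 63322 counts in control and at 71896 and 67629 in surgery. The flip form, Gria1-201 (ENSMUST00000036315), took 7509 and 6641 in control and 9364 and 8708 in surgery. Flip thus stayed the minor form in every library, and its counts were higher in both surgery libraries than in both controls. The log2 fold change was 0.38 (SE 0.15, 95% interval -0.08 to 0.83, unadjusted p = 0.0796, adjusted p = 0.921) for flip and 0.03 (SE 0.11) for flop. As a share of flip plus flop FPKM, flip made up 8.78% and 9.27% in control and 11.3% and 11.1% in surgery. The means were 9.02% ± 0.346 (SD, n = 2) and 11.2% ± 0.0812 (SD, n = 2), and the groups did not overlap. An exact permutation test of 2 against 2 libraries cannot go below a two-sided p of 0.333, so this share is given as a description. In the usage test Gria1-201 had an adjusted p of 1 with edgeR and of 0.88 with limma.

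Gria2 had 7 named transcripts, which held a small part of its counts. The flop form Gria2-201 was estimated at 6500 and 7347 counts in control and at 6915 and 6362 in surgery. The flip form Gria2-202 took 167 and 223 in control and 155 and 168 in surgery. The flip share of flip plus flop FPKM was 6.21% and 7.25% in control and 5.46% and 6.37% in surgery, and the groups overlapped. The share leaves out Gria2-203, which held 54.0% and 44.7% of the gene's named transcript FPKM in control and 36.3% and 33.5% in surgery. Gria2-203, a transcript annotated for nonsense-mediated decay that holds both exons in a row, took 3322 and 2606 counts in control and 1610 and 1444 in surgery. Both surgery libraries were below both controls, with a log2 fold change of -0.93 (SE 0.26, unadjusted p = 0.028, adjusted p = 0.666), while its usage gave an unadjusted p of 0.539. The part of Gria2 that the named transcripts carried was lower in surgery as well.

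Gria3 transcripts changed places between the 2 control libraries. The flip form Gria3-201 took 15701 estimated counts in control replicate 1, 1229 in control replicate 2, and 4298 and 4002 in surgery. Gria3-206, which holds both exons and is annotated for decay, took 11851 counts in control replicate 2 and was listed at 0 in the other 3 libraries. The flip share of flip plus flop FPKM was 75.7% and 27.8% in control and 33.0% and 31.6% in surgery, so the surgery libraries fell between the controls. This share leaves out Gria3-206, which held 72.2% of the gene's named transcript FPKM in control replicate 2. The flop form Gria3-209 took 2108 and 1258 counts in control and 3800 and 3778 in surgery. Its log2 fold change was 1.20 (SE 0.34, unadjusted p = 0.0315, adjusted p = 0.706), while its usage gave an unadjusted p of 0.194 in edgeR and 0.341 in limma. Gria3-207, a transcript with a retained intron, was at 1 and 2 counts in control and 11 and 18 in surgery, at an unadjusted p of 0.0282 in level and 0.0331 in usage.

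Gria4 was where a named flip transcript separated the groups most. Gria4-202 (ENSMUST00000063508), the only named Gria4 transcript with flip, had estimates of 275 and 227 counts in control and of 1 and 2 in surgery. Scaled by the transcript totals, the surgery level was 0.00585 of the control level. Totals of these estimated counts were 3.85 to 3.91 times the gene totals. They are thus not reads, and no interval for counting error is given. The level test gave an unadjusted p of 0.000904 and an adjusted p of 0.407. The usage test gave an adjusted p of 0.0217 in edgeR and 0.767 in limma, and DESeq2 gave the level an adjusted p of 4.7e-08. The flip share of flip plus flop FPKM was 14.0% and 31.0% in control and 0.111% and 0.202% in surgery. The flop forms overlapped between the groups. Gria4-201 took 245 and 171 counts in control and 218 and 724 in surgery, and Gria4-204 took 1404 and 328 in control and 669 and 269 in surgery. Gria4-203, which holds neither exon and encodes 433 residues, held 48.5% to 64.5% of the gene's transcript FPKM. Between 46.9% and 74.0% of the scaled gene count lay outside the named transcripts, and its flip content was not tested.

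**Figure D4:**
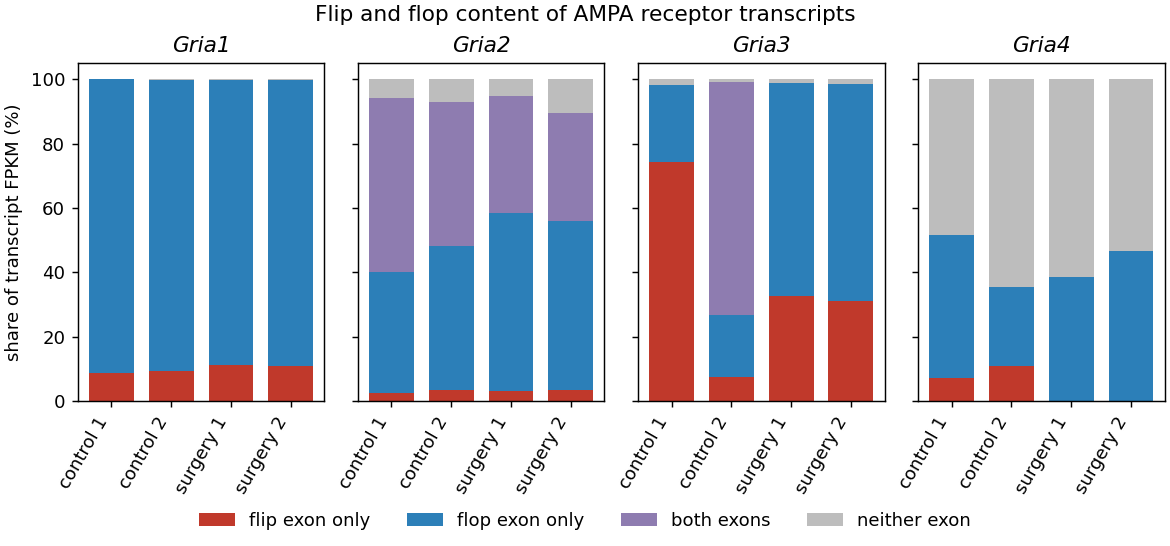
Share of each AMPA receptor gene's named transcript FPKM, in percent, held by transcripts with the flip exon only, the flop exon only, both or neither, in each library. Gria1 is almost all flop with a flip part of 8.77% to 11.2%, the Gria4 flip part of 7.23% and 11.0% in control is at most 0.0942% in surgery, and Gria3 differs most between the 2 controls.

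Among the kainate genes, Grik3 had 1 transcript and followed its gene. Grik2 was led by Grik2-203, a transcript with a retained intron, at 49.7% to 55.3% of its FPKM, and by Grik2-207, which encodes 908 residues, at 24.4% to 26.8%. Grik2-201, which encodes a shorter form of 869 residues, had estimates of 334 and 263 counts in control and of 138 and 86 in surgery. Grik2-202, which encodes 908 residues, took 339 and 259 in control and 665 and 522 in surgery. In the level test the unadjusted p was 0.0517 for Grik2-201 (log2 fold change -1.39, SE 0.48, adjusted p = 0.842). It was 0.0718 for Grik2-202 (1.01, SE 0.40, adjusted p = 0.910). Grik2-204, which also encodes 869 residues, took 171 and 113 counts in control and 74 and 190 in surgery. The level test gave a log2 fold change of -0.06 for Grik2-204 (unadjusted p = 0.933) and 0.23 for Grik2-207 (unadjusted p = 0.386). Grik2-201 and Grik2-204 were named after their values were seen. Grik2-205, which encodes 893 residues, was listed at 0 in both controls and took 15 and 41 counts in surgery, at most 0.912% of the gene's transcript FPKM. Its usage gave an adjusted p of 0.0347 in edgeR and 0.397 in limma.

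Several Grik1 and Grik5 transcripts differed widely between the libraries of a group. Grik1-209, which encodes the longest form at 949 residues, was estimated at 433 and 0 counts in control and at 169 and 424 in surgery. Grik1-201, which encodes 905 residues, took 123 and 319 in control and 78 and 71 in surgery, and Grik1-211, which encodes 920 residues, took 15 and 198 in control and 178 and 72 in surgery. Grik1-202, Grik1-207 and Grik1-208 each reached at least 10% of the gene's FPKM in 1 library or more and had unadjusted p-values from 0.404 to 0.795. In Grik5, surgery replicate 2 went apart from the other 3 libraries. Grik5-207, annotated for decay, took 3391 and 2662 counts in control and 3978 in surgery replicate 1, but 17 in surgery replicate 2. Grik5-202, also annotated for decay, took 578 and 1217 in control and 0 in surgery replicate 1, but 10440 in surgery replicate 2. The one named protein-coding form, Grik5-201, of 979 residues, took 14 and 3 in control and 19 in surgery replicate 1, but 2667 in surgery replicate 2. The retained-intron form Grik5-206 stayed between 94 and 160 counts in all 4 libraries.

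Proteins that assemble, move, anchor and edit these receptors were counted in 5 lists of 58 genes, all of which were tested. In edgeR 0 passed the adjusted threshold, where 0% of all genes passed, and DESeq2 called 2, Cacng8 and Nova2. At an unadjusted p under 0.05, 1 of 58 was higher, where 4.33% of all genes were, and 4 of 58 were lower, where 5.63% of all genes were. Among the 20 auxiliary and assembly proteins of the AMPA receptor the median log2 fold change was 0.02, with 11 positive and 9 negative estimates. Cacng8, the TARP gamma-8 that anchors AMPA receptors in hippocampal pyramidal cells, was at 149 and 152 CPM in control and 71.2 and 114 CPM in surgery. Both surgery libraries were lower, with a log2 fold change of -0.70 (SE 0.18, unadjusted p = 0.0031, adjusted p = 0.364). With the GC offset it was -0.30 at an unadjusted p of 0.0304, and the Cacng8 transcript has a GC content of 65.1%. DESeq2, edgeR without a count filter and edgeR without control replicate 2 or without surgery replicate 2 called Cacng8 at adjusted p-values of 0.0343, 1.4e-05, 0.0411 and 2.7e-10. The other 10 alternatives did not call it. Without surgery replicate 1 the estimate was -0.39 (adjusted p = 0.208) and without surgery replicate 2 it was -1.07. Cnih3, a cornichon that slows channel closing, was at 81.2 and 69.0 CPM in control and 59.6 and 57.6 CPM in surgery, with a log2 fold change of -0.36 (SE 0.12, unadjusted p = 0.0135, adjusted p = 0.414). Without control replicate 1 it was -0.23 at an unadjusted p of 0.183. Cacng7, another TARP, and Porcn, an assembly factor of AMPA receptor complexes, had estimates of -0.24 and -0.19 at adjusted p-values of 0.588 and 0.58.

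Among the 14 trafficking, anchoring and clustering genes, 11 estimates were negative and the median log2 fold change was -0.12, beside 0.00 over all genes, and -0.02 with the GC offset. None had an unadjusted p under 0.05. Dlg4, which encodes the postsynaptic scaffold PSD-95, was at 728 and 714 CPM in control and 556 and 664 CPM in surgery (log2 fold change -0.24, SE 0.15, adjusted p = 0.594). Nptxr, the neuronal pentraxin receptor that clusters AMPA receptors, was at 1064 and 961 CPM in control and 750 and 965 CPM in surgery, with an estimate of -0.24. Gripap1 and Nptx2 had estimates of -0.21 and -0.19. The groups of Dlg4 did not overlap, and those of Nptxr did.

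In the list of RNA editing and splicing factors, the median was 0.05 and 2 of 10 genes were lower at an unadjusted p under 0.05. Nova2, a neuronal splicing factor, was at 122 and 121 CPM in control and 67.6 and 89.2 CPM in surgery. Its 2 controls were almost equal and both surgery libraries lower, with a log2 fold change of -0.63 (SE 0.14, unadjusted p = 0.000876, adjusted p = 0.309), and -0.49 with the GC offset. DESeq2 called Nova2 at an adjusted p of 0.0175, edgeR without a count filter at 0.000265, without control replicate 2 at 0.0496 and without surgery replicate 2 at 1.9e-06. The other 10 alternatives did not call it, and without surgery replicate 1 the estimate was -0.44 (adjusted p = 0.102). Adar, an editing deaminase, was at 148 and 152 CPM in control and 113 and 136 CPM in surgery (-0.27, SE 0.12, unadjusted p = 0.0491, adjusted p = 0.50). The unadjusted p was 0.0573 with the GC offset, 0.051 with limma-voom and 0.0502 with RLE factors, and without surgery replicate 1 the estimate was -0.14 (unadjusted p = 0.27). Adarb1, also in this list, was at 198 and 193 CPM in control and 184 and 192 CPM in surgery (-0.06, SE 0.11, edgeR adjusted p = 0.895). Editing of Gria2 transcripts was not measured. Srsf1 and Ptbp2, which regulate splice sites, had estimates of 0.24 and 0.21 at adjusted p-values of 0.517 and 0.572.

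The 8 kainate receptor partners had a median log2 fold change of -0.01, and 1 of them was higher at an unadjusted p under 0.05. This list includes Grik4. Neto2, an auxiliary subunit of kainate receptors, was at 56.4 and 46.7 CPM in control and 83.0 and 64.5 CPM in surgery. Both surgery libraries were higher, with a log2 fold change of 0.52 (SE 0.15, unadjusted p = 0.0053, adjusted p = 0.377). With the GC offset it was 0.28 at an unadjusted p of 0.0231, and the Neto2 transcript has a GC content of 36.5%. Neto2 passed the adjusted threshold without a count filter (adjusted p = 0.0097) and without surgery replicate 2 (adjusted p = 0.000144), and under none of the other 12 alternatives. Without surgery replicate 1 the estimate was 0.33 (adjusted p = 0.578) and without surgery replicate 2 it was 0.69. C1ql2, a mossy fibre organizer of kainate receptors that is also a marker of dentate granule cells, was at 86.3 and 99.8 CPM in control and 65.8 and 85.6 CPM in surgery (-0.30, SE 0.14, adjusted p = 0.517). Kcnip3 and C1ql3 had estimates of -0.22 and 0.25. The 6 delta receptor genes and their organizers had estimates from -0.21 to 0.03, with 0 at an unadjusted p under 0.05.

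**Figure D5:**
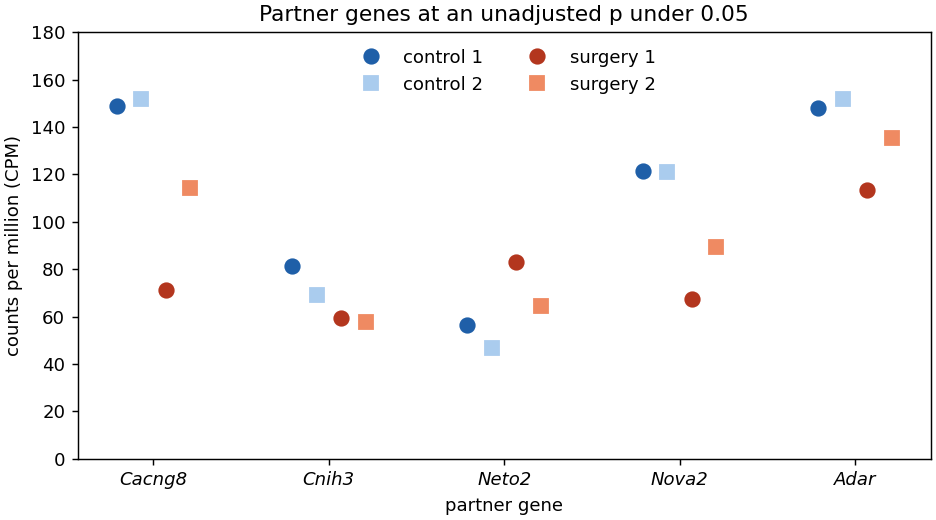
CPM of the 5 partner genes with an unadjusted p under 0.05, in each library. Cacng8, Cnih3, Nova2 and Adar are lower and Neto2 is higher in both surgery libraries than in both controls, surgery replicate 1 lies farther from the controls than surgery replicate 2 in all but Cnih3, and none of the 5 passed the adjusted threshold in edgeR.

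Cell type markers were counted beside these genes. At an unadjusted p under 0.05, 4.33% of all genes were higher and 5.63% lower, and each list holds 6 genes or fewer. Of the 4 dentate granule cell markers 2 were higher, Calb1 with a log2 fold change of 0.51 and Prox1 with 0.33, and C1ql2 was at -0.30. The median of the 4 was 0.26. The summed level of the 4 was 366 and 330 CPM in control and 408 and 406 CPM in surgery. Of the 4 oligodendrocyte markers 1 was lower, Mag at -0.66, with a median of -0.33, and their sum was 3829 and 3929 CPM in control and 3836 and 2755 CPM in surgery. None of the 5 pyramidal cell or 6 interneuron markers had an unadjusted p under 0.05. Of 4 astrocyte markers 1 was higher, Aqp4 at 0.35, with a median of 0.06. Of 4 microglia markers 1 was lower, C1qa at -0.44, while P2ry12 was at 0.37, Cx3cr1 at 0.17 and Tmem119 at 0.07, with a median of 0.12. The choroid plexus, oligodendrocyte precursor, thalamus and striatum lists held 0 genes at an unadjusted p under 0.05. The part of these cell types in the subunit and partner values was not tested.

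The genes whose pattern over the 4 libraries was nearest to the mean of the AMPA subunits were Kdm3a, Hlcs and Tmx2, at root mean square distances of 0.0045, 0.0073 and 0.0075 in log2 CPM. Nearest to the mean of the kainate subunits were Wdr33, Upf3b and Pcsk5, at distances of 0.0025, 0.0064 and 0.0082. The mean AMPA profile was highest in surgery replicate 1, 0.11 above its mean, and lowest in control replicate 2, 0.14 below it. The mean kainate profile was lowest in surgery replicate 1, 0.13 below its mean, and highest in surgery replicate 2, 0.10 above it. With 4 libraries, likeness of this kind is a description.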

How the data were processed

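Hippocampal RNA of 2 control and 2 surgery libraries was used, and none was left out. HISAT2 served the authors for alignment to mm10 and HTSeq, version 5.4.2 in the submitters' processing notes, for counting. The deposited files hold raw gene counts, gene FPKM, estimated transcript counts and transcript FPKM, made by the authors. The tool behind the transcript table is not given in the sources used here. Its estimated counts are whole numbers as deposited and were used so. The 8 subunit genes, the partner lists and the marker lists were chosen with earlier results of these data known.

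Surgery was compared with control by the quasi-likelihood test of edgeR 4.0.16 under R 4.3.3, after TMM scaling and a filterByExpr minimum of 10 counts and 15 in total, with Benjamini-Hochberg adjustment over all tested features and a threshold of 0.05. Usage was tested with edgeR's diffSpliceDGE. Self-tests on simulated data were run first. Positions, exons and GC content came from GENCODE vM21 on GRCm38, where all 8 positions were the same as in the files.

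The alternatives were DESeq2 1.42.0, limma 3.58.1 (voom, diffSplice and log2 FPKM with pseudocounts of 1 and 0.1), RLE factors, no count filter, a replicate block, a GC offset (a smooth trend with a span of 0.3 per library), gene counts summed from transcripts and leaving out each replicate, where the lone library of a group is assumed to vary like the other group.

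Named were all 8 genes, their transcripts with at least 10% of the gene's FPKM in 1 library or an unadjusted p under 0.05, of each partner list up to 4 genes by the smallest p and any with an unadjusted p under 0.05, and the 3 genes nearest to each mean profile among those with at least 10 CPM. Gria2-202 and Grik2-201 fall outside this rule and were named after their values were seen. Transcript counts are estimates and not reads, so no interval for counting error is given on them.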

Additional observations from a re-analysis of the deposited data

How the results depend on the processing

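Over 14 alternatives per gene, the 112 log2 fold changes of the 8 subunit genes gave 0 adjusted calls, 83 kept their sign and 29 turned it. With the GC offset, the reversed values were -0.0371 for Gria2, -0.0189 for Gria3, -0.0884 for Gria4, -0.0248 for Grik1, -0.00846 for Grik2, 0.0315 for Grik3 and 0.0273 for Grik5. With gene counts summed from transcripts they were -0.269 for Gria2, -0.891 for Gria3, -0.414 for Gria4, -0.0338 for Grik1 and 1.12 for Grik5, where the named transcripts carry differing parts of the gene. Gria4 was at -0.00646 and -0.007 and Grik1 at -0.00727 and -0.0103 on log2 FPKM with pseudocounts of 1 and 0.1. Leaving out 1 library at a time gave -0.0653 to 0.167 for Gria1, 0.0948 to 0.293 for Gria2, 0.0408 to 0.312 for Gria3, -0.0189 to 0.0466 for Gria4, -0.0663 to 0.0854 for Grik1 and -0.242 to 0.124 for Grik3. The cause of the other reversals was not tested.

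At an unadjusted p under 0.05, 1 subunit gene (Gria3) was counted in place of 0 with counts summed from transcripts, where 5.16% of all genes were. For the 58 partner genes the adjusted calls were 2 with DESeq2, where 0.229% of all genes were called, 3 without a count filter, where 1.33% were, and 0 to 5 with a library left out. The highest count came without surgery replicate 2, where 4.09% of all genes were called, in place of 0%. With a library left out 4 to 11 partner genes had an unadjusted p under 0.05, and the share of all genes went from 6.58% to 15.02%. Subunit transcripts at an adjusted p under 0.05 numbered 4 with DESeq2, which called 3.11% of all transcripts (Gria3-206, Gria4-202, Grik2-205 and Grik5-201), and 3 to 7 had an unadjusted p under 0.05 with a library left out, where 6.22% to 8.06% of all transcripts did. Usage calls numbered 0 with limma, which called 0.499% of all transcripts. Taken on estimated counts in place of FPKM, the flip share moved to 11.5% in surgery for Gria1, to 2.73% in control and 2.38% in surgery for Gria2, and to 47% in surgery for Gria3.

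Replicate numbers are shared by the groups, but the labels do not say that they pair the mice. Deviations of same-numbered libraries correlated at 0.13, with 2 pairs only. With the replicate block 9 partner genes had an unadjusted p under 0.05 in place of 5, while the share of all genes went from 9.96% to 13.6%. So did 1 subunit transcript in place of 5, while the share of all transcripts went from 6.00% to 3.88%. In usage 2 subunit transcripts had an unadjusted p under 0.05 in place of 3 (Gria3-207 went to 0.0688). The share of all transcripts in usage went from 4.47% to 3.80%. At the adjusted threshold 0 passed in place of 2, while the share of all transcripts went from 0.893% to 0.166%. The edgeR adjusted p was 0.0992 for Gria4-202 and 0.0949 for Grik2-205. With the GC offset and the block together Gria2 was at -0.037, Gria3 at -0.0164, Gria4 at -0.0881, Grik1 at -0.026, Grik2 at -0.00967, Grik3 at 0.0269 and Grik5 at 0.0325. The block changed no other adjusted call on the subunit genes and transcripts.

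Depth limits Grik1 most among the subunit genes, at 256 to 265 counts per library, against 17930 to 21534 for Gria1.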
